A study of Rattus norvegicus with 9 samples.

Results

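The genes described here belong to the unfolded protein response and the integrated stress response, measured by RNA sequencing in the renal outer medulla of 9 rats (strain MCW SS, salt-sensitive). The 10 genes are Hspa5, Hsp90b1, Pdia4, Dnajb9, Herpud1, Xbp1, Atf4, Ddit3, Trib3 and Asns, each taken at the locus that carries exactly its name. That rule found 8 of the 10 among 30315 loci. Hsp90b1 and Pdia4 appear only at loci whose name joins the symbol with an Ensembl identifier, so their values are given as those of 2 joined loci and they stay out of the counts of members. Each group held 3 rats with 1 library per rat. HS_DT rats received GapmeRs (antisense oligonucleotides) against Dnmt3a and Tet3 into the kidney at 2 mg/kg each, and a 4% NaCl diet for 7 days. HS_SCR rats received a scrambled GapmeR by the same route at 4 mg/kg, with the same diet and time. Rats labelled 0.4% salt had the same surgery and were collected at the point where GapmeR and high salt would have started. No group received the diet or a GapmeR alone, so HS_SCR against 0.4% salt takes in diet, oligonucleotide and time together. Where nothing else is said, "HS_SCR replicate 3" and the like name single rats. P-values set each group difference against the spread between rats within groups, with that spread moderated over all tested loci.

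When misfolded protein builds up in the endoplasmic reticulum (ER), the chaperone BiP, encoded by Hspa5, leaves the membrane sensors PERK, IRE1 and ATF6. ATF6 is cleaved into a transcription factor and IRE1 splices the Xbp1 mRNA, and both routes raise chaperones and degradation factors. PERK slows general translation by phosphorylating eIF2α and favours translation of ATF4, as do the kinases that sense amino acid shortage, viral RNA and haem shortage, which is why that arm is called the integrated stress response. ATF4 in turn raises Ddit3 (CHOP), Trib3 and Asns. Cells of the renal medulla work at high osmolality and low oxygen tension. Splicing of Xbp1 and translation of Atf4, the main control steps of those 2 factors, are not visible in gene-level RNA values.

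The arms of the response act through short promoter elements, and the 5 promoters that hold a match to such an element are shown. Sequences are the 250 bases before the transcription start, from RefSeq on build GRCr8, written 5′ to 3′ in the direction of the gene. All 10 genes had a promoter in that table. Capitals mark 3 motifs, each searched on both strands, so that a match on the opposite strand reads as its reverse complement. They are the ER stress element ERSE (CCAAT and CCACG with 9 free bases between), its variant ERSE-II (ATTGG and CCACG with 1 free base between) and the core of the C/EBP-ATF response element, CARE (TGATG and AA with 1 free base between). No match overlapped another.

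Hspa5 (chr3:38452766-38453015, plus strand): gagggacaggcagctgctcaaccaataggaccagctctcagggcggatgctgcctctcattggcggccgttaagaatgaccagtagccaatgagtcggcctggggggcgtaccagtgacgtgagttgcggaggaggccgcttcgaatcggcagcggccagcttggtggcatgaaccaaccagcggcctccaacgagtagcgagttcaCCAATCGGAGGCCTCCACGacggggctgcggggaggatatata

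Hsp90b1 (chr7:23012294-23012543, minus strand): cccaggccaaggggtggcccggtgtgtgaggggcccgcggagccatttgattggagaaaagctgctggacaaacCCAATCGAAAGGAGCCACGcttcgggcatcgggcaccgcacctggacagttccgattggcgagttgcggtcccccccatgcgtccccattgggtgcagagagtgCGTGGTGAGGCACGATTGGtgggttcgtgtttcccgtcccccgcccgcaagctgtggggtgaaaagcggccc

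Xbp1 (chr14:84604373-84604622, plus strand): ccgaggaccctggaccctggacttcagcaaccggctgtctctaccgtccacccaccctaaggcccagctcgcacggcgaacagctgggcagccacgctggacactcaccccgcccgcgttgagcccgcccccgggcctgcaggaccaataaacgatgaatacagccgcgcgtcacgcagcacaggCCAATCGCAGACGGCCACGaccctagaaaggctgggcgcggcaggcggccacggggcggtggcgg

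Herpud1 (chr19:10614708-10614957, minus strand): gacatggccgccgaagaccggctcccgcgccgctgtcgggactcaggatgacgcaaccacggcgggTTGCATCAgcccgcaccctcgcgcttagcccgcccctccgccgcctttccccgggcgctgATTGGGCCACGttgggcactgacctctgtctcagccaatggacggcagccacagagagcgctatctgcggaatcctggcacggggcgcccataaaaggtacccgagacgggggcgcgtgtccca

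Trib3 (chr3:161275534-161275783, minus strand): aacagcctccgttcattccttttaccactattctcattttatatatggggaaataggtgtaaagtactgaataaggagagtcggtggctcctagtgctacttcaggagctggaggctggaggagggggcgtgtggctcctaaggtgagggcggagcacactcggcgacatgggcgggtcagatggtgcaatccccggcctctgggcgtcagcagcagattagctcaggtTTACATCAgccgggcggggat

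ERSE lies 43 to 25 bases before the start in Hspa5 and 65 to 47 bases before it in Xbp1. Hsp90b1 has 2 matches, 176 to 158 bases before the start and, on the opposite strand, 72 to 54 bases before it. Of 33469 promoters of the same length, 22 hold ERSE, which is 0.0657%. Among 14 promoters of other ER folding genes listed below, 4 hold it (Calr, Canx, Creld2 and Dnajc3). ERSE-II occurs in 14 promoters, 0.0418%, and lies 124 to 114 bases before the start of Herpud1. The CARE core is a commoner string, present in 3.4% of promoters. It lies on the opposite strand in Herpud1 (184 to 177 bases before the start) and in Trib3 (21 to 14 bases before it). The 250 bases before Pdia4, Dnajb9, Atf4, Ddit3 and Asns hold none of these 3 strings, which says nothing of sites elsewhere. A match is a string of letters, not a measured binding site.

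Values are FPKM, fragments scaled by transcript length and by library size, and differences are on the log2(FPKM + 1) scale. Testing covered the 14338 loci whose mean reached 1 FPKM, and a locus is called where the limma p, adjusted by Benjamini-Hochberg over those loci, is under 0.05. Summed FPKM per library ran from 685349 to 933862 and estimated relative depth from 0.761 to 1.37; the absolute depth is unknown. Dnmt3a had 8.72, 10.3 and 11.02 FPKM in libraries labelled HS_DT, 7.05, 5.75 and 10.3 in those labelled HS_SCR, and 13.4, 12.2 and 12.9 in 0.4% salt. Tet3 had 7.62, 8.54 and 7.92 FPKM in HS_DT, 5.04, 5.47 and 8.20 in HS_SCR, and 9.38, 8.47 and 9.64 in 0.4% salt. By these values both targeted transcripts were higher in each HS_DT library than in HS_SCR replicates 1 and 2. HS_SCR replicate 3 lay within the HS_DT range for both. As a group HS_DT did not show less of either, and no test of these genes is given here. Every direction below rests on the labels. HS_SCR replicate 3 stood apart from the other 8 libraries on the second principal component (-51.5 against -2.34 to 24.0). It also had the lowest share of mitochondrially encoded transcripts (20.6% of summed FPKM) and the lowest sum of thick ascending limb markers (1323 FPKM, against 2483 to 4453 in the others). Rat numbers fall into a lower and a higher run, called series here, with no explanation in the labels. The higher one holds HS_SCR replicate 3, HS_DT replicate 3 and all 3 rats of 0.4% salt. A fit with series as a factor therefore takes the series step from the high-salt rats alone, as a step common to HS_SCR and HS_DT. None of the 10 measured thick ascending limb markers was at 0 in any library. In bulk tissue, fewer cells of a type and less RNA per cell cannot be told apart.

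Among the ER chaperones, Hspa5 was the most abundant of the 10 genes and the most variable within HS_SCR. Hspa5 (rn5 chr3:19157873-19162332), which encodes BiP, had 314.9, 408 and 278 FPKM in HS_DT, 563, 576 and 133 FPKM in HS_SCR, and 245, 268 and 303 FPKM in 0.4% salt. HS_SCR replicates 1 and 2 were the highest of the 9 libraries and HS_SCR replicate 3 the lowest, a 4.34-fold spread inside HS_SCR, against 1.47-fold inside HS_DT and 1.24-fold inside 0.4% salt. Group means were 334 ± 67.1 FPKM in HS_DT, 424 ± 252 in HS_SCR and 272 ± 29.3 in 0.4% salt (SD, n = 3 each). The log2 difference of HS_SCR minus 0.4% salt was 0.37 ± 0.50 (SE; limma 95% interval -0.76 to 1.51; adjusted p = 0.635) and did not pass. That of HS_DT minus HS_SCR was -0.09 ± 0.50 (-1.23 to 1.05; limma adjusted p = 0.940). The intervals are wide enough to hold changes of either sign.

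The joined loci of the other abundant chaperones had the same profile. The Hsp90b1 locus (chr7:27345729-27359757), which includes the ER form of HSP90 known as GRP94, had 234, 276 and 246 FPKM in HS_DT, 354, 398 and 141 in HS_SCR, and 201, 228 and 229 in 0.4% salt. The Pdia4 locus (chr4:142140945-142159845), with a disulfide isomerase, had 73.9, 86.0 and 83.9 FPKM in HS_DT, 105, 99.5 and 44.5 in HS_SCR, and 68.8, 73.0 and 81.5 in 0.4% salt. At both, HS_SCR replicate 3 was again the lowest of all 9 libraries and the other HS_SCR libraries the highest. Over the 9 libraries, log2 values of Hspa5 correlated with those of the Hsp90b1 locus at Pearson r = 0.984 (Spearman rho = 0.95, r = 0.964 without the 2 libraries farthest from the median of Hspa5). With the Pdia4 locus, r was 0.954 (rho = 0.917, r = 0.901 without those 2 libraries). These libraries share their preparation and scaling, and the coefficients are descriptive. HS_SCR minus 0.4% salt was 0.31 ± 0.34 at the Hsp90b1 locus (limma adjusted p = 0.558) and 0.06 ± 0.28 at the Pdia4 locus (0.904), so neither passed.

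The other ER genes among the 10 moved less between libraries. Dnajb9 (chr6:73754560-73758774), an ER co-chaperone of BiP and target of XBP1, had 22.3, 27.9 and 27.3 FPKM in HS_DT, 35.9, 34.9 and 23.4 in HS_SCR, and 24.6, 25.6 and 24.7 in 0.4% salt. Here HS_SCR replicate 3 fell inside the range of HS_DT and below 0.4% salt, and the remaining HS_SCR libraries lay above all others. Herpud1 (chr19:11027610-11037998), a membrane protein of ER-associated degradation, had 104, 128 and 107 FPKM in HS_DT, 118, 124 and 88.3 in HS_SCR, and 95.3, 106 and 90.3 in 0.4% salt. All 3 group ranges of Herpud1 overlapped, and the highest value was in HS_DT replicate 2. Xbp1 (chr14:86423809-86431315), the factor whose mRNA IRE1 splices, had 78.8, 85.8 and 72.7 FPKM in HS_DT, 102, 87.3 and 66.1 in HS_SCR, and 77.6, 76.3 and 70.3 in 0.4% salt. HS_SCR minus 0.4% salt was 0.29 ± 0.16 for Dnajb9 (limma adjusted p = 0.243), 0.16 ± 0.14 for Herpud1 (0.459) and 0.16 ± 0.15 for Xbp1 (0.470), and none of these passed.

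Atf4 was the single member called in any comparison. Atf4 (chr7:121468539-121470594), the central transcription factor of the integrated stress response, had 162, 169 and 139 FPKM in HS_DT, 225, 188 and 156 in HS_SCR, and 139, 126 and 122 in 0.4% salt. All 3 HS_SCR libraries, and all 3 HS_DT libraries by a narrow margin, lay above every 0.4% salt library, while HS_DT and HS_SCR overlapped. Atf4 averaged 190 ± 34.4 FPKM in HS_SCR and 129 ± 8.50 FPKM in 0.4% salt (SD, n = 3 each), a 1.45-fold difference (log2 0.54 ± 0.14 SE, 95% interval 0.22 to 0.85, limma adjusted p = 0.0385). It rose in HS_SCR, and HS_DT minus HS_SCR was -0.27 ± 0.14 (limma adjusted p = 0.333) while HS_DT minus 0.4% salt was 0.27 ± 0.14 (0.713). The call was kept without HS_SCR replicate 3 (0.67, limma adjusted p = 0.004996) or HS_DT replicate 3 and ended without any other library, with adjusted p up to 0.125. With a factor for rat number series the difference was 0.32 (limma adjusted p = 0.111).

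The targets of ATF4 on the amino acid and apoptosis side did not all share a profile. Ddit3 (chr7:70754397-70776456), which encodes CHOP, had 35.4, 45.9 and 37.5 FPKM in HS_DT, 52.9, 35.3 and 27.3 in HS_SCR, and 37.5, 33.6 and 31.4 in 0.4% salt. HS_SCR replicate 1 was the highest and HS_SCR replicate 3 the lowest of all, and the ranges of the 3 groups overlapped (HS_SCR minus 0.4% salt 0.12 ± 0.21, limma adjusted p = 0.729). The table gives the same interval to Mars, the methionyl-tRNA synthetase gene next to it, at 21.4 to 28.0 FPKM, so the assignment of reads between the 2 genes is uncertain. Trib3 (chr3:154161601-154167857), a pseudokinase that restrains the response, was near the limit of detection, with 0.664, 0.794 and 1.07 FPKM in HS_DT, 0.844, 0.924 and 1.501 in HS_SCR, and 0.482, 0.764 and 0.701 in 0.4% salt. Its mean of 0.861 FPKM was below the filter, and with no filter (22911 loci) HS_SCR minus 0.4% salt was 0.33 ± 0.14 (limma adjusted p = 0.198). Trib3 was higher in each HS_SCR library than in any 0.4% salt library, by a margin that this level does not resolve.

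Asns (chr4:33607165-33648521), asparagine synthetase, separated all 3 groups by small steps. It had 11.4, 11.5 and 11.6 FPKM in HS_DT, 12.2, 11.8 and 13.99 in HS_SCR, and 9.85, 10.97 and 10.1 in 0.4% salt. No range overlapped another, with HS_SCR highest and 0.4% salt lowest. HS_SCR minus 0.4% salt was 0.27 ± 0.09 (limma 95% interval 0.08 to 0.47; adjusted p = 0.0696) and did not pass. HS_DT minus HS_SCR was -0.12 ± 0.09 (limma adjusted p = 0.458) and HS_DT minus 0.4% salt was 0.15 ± 0.09 (0.754). In HS_SCR replicate 3, where Hspa5 was at its lowest, Asns and Trib3 were at their highest of the 9 libraries.

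**Figure D1:**
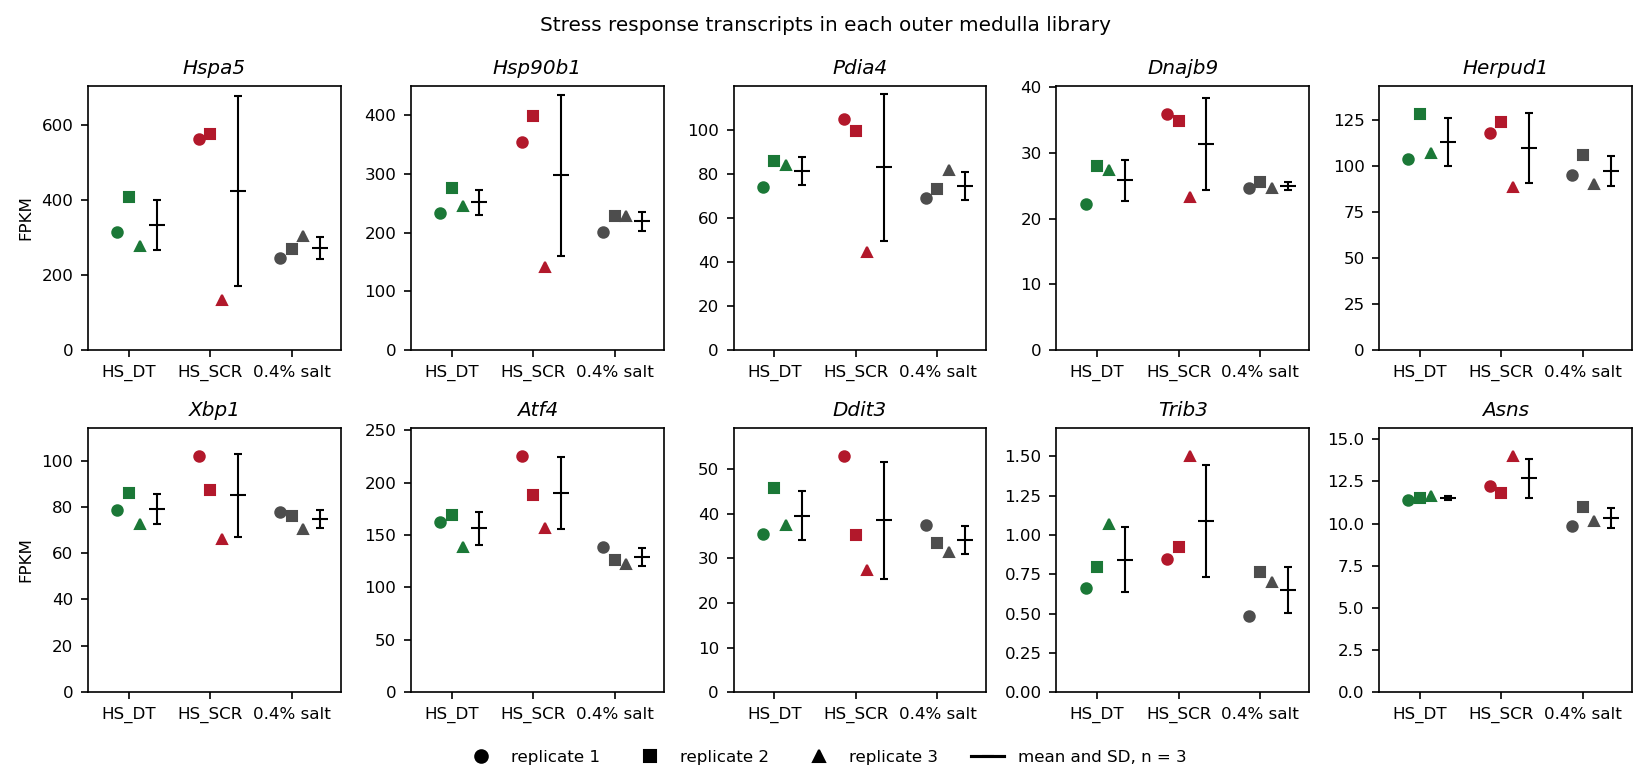
FPKM (linear axes from 0) of the 8 genes found by name and of the joined loci of Hsp90b1 and Pdia4 in each library, with the group mean and SD (n = 3) beside the points. HS_SCR replicate 3 (red triangle) is the lowest point for Hspa5, Hsp90b1, Pdia4, Herpud1, Xbp1 and Ddit3 and the highest for Trib3 and Asns.

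Counted over the members, few calls were made between HS_SCR and 0.4% salt. Of the 8 genes found by name, 7 were tested, and 1 rose (Atf4), none fell and 6 did not pass. Over all tested loci 13.1% were called in this comparison, 8.2% higher and 4.88% lower. All 7 means were higher in HS_SCR, with a median log2 difference of 0.27, beside 0.02 over all tested loci. With a factor for rat number series 4 of the 7 (Hspa5, Herpud1, Xbp1 and Ddit3) turned lower in HS_SCR, none of them called. That factor rests on the high-salt rats alone, so these signs lean on HS_SCR replicate 3 and HS_DT replicate 3. FPKM ranges did not overlap for 3 of the 8 genes (Atf4, Trib3 and Asns), against 33.5% of tested loci. The members' shares lay near these backgrounds.

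Between HS_DT and HS_SCR none of the 7 tested members was called, against 0.00697% of loci (1 locus). None of the 7 had an unadjusted p under 0.05 in limma, against 19.1% of loci. The median log2 difference was -0.09, with 5 means lower in HS_DT and 2 higher (Herpud1 at 0.05 and Ddit3 at 0.08). Dnajb9 stood at -0.25 ± 0.16 (limma adjusted p = 0.425). Ranges did not overlap for 1 of the 8 genes (Asns), against 21.6% of loci.

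Between HS_DT and 0.4% salt none was called either, as at every other locus (0% called). No member had an unadjusted p under 0.05 in limma, against 7.49% of loci. All 7 means were higher in HS_DT, with a median of 0.20, the largest being Hspa5 at 0.28 ± 0.50 and Atf4 at 0.27 ± 0.14. Ranges did not overlap for 2 of the 8 genes (Atf4 and Asns), against 23.8% of loci. This comparison shares its 0.4% salt libraries with that of HS_SCR minus 0.4% salt. The F test over the 3 groups called none of the 7, against 5.61% of loci, with its lowest adjusted p for Atf4 (limma F test, adjusted p = 0.0997).

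The chaperone values turned on HS_SCR replicate 3. That library was the lowest at Hspa5 and at both joined loci, so leaving it out raises the HS_SCR means there. Calls made without it are not independent of that choice and are given as a description. Ranges for the other libraries left out are given below. Without HS_SCR replicate 3, Hspa5 was called higher in HS_SCR than in 0.4% salt (log2 1.07 ± 0.16, limma adjusted p = 0.00338), as were Dnajb9 (0.49, 0.00923), Xbp1 (0.33, 0.0328) and Atf4, 4 of 7 tested members. In that fit 20.5% of loci were called higher, and 36.3% in either direction. The joined loci of Hsp90b1 (0.78, limma adjusted p = 0.00234) and Pdia4 (0.45, 0.0104) were called too. In HS_DT minus HS_SCR, Hspa5 (-0.79, limma adjusted p = 0.0213) and Dnajb9 (-0.44, 0.0262) were then called lower in HS_DT, 2 of 7 members. There 9.29% of loci were called lower, and 16% in either direction. The Hsp90b1 locus was called lower too (-0.58, limma adjusted p = 0.0158). HS_DT minus 0.4% salt gave no call among the members, where 0.0698% of loci were called. That fit sets HS_SCR rats from the lower series alone against 0.4% salt rats from the higher series alone, so group and series cannot be told apart there.

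Rat number series could be held constant for HS_DT minus HS_SCR in the lower series, with 2 rats of each high-salt group. There the difference was -0.67 for Hspa5 (limma adjusted p = 0.0476) and -0.49 for Dnajb9 (0.0470), where 7.37% of loci were called. The higher series holds 1 rat of each high-salt group, too few for a comparison within it. With the series as a factor over all 9 libraries, none of the 7 members was called in any comparison, where 9.2% of loci were called in HS_SCR minus 0.4% salt, 2.94% in HS_DT minus HS_SCR and 0% in HS_DT minus 0.4% salt. In that fit HS_SCR minus 0.4% salt was -0.45 for Hspa5 (limma adjusted p = 0.485) and 0.34 for Asns (0.0589). The fit assumes a common series step in the high-salt groups, which Hspa5 did not show. Its FPKM was 563 and 576 in the lower series and 133 in the higher in HS_SCR, but 314.9, 408 and 278 in HS_DT. The turned sign is therefore not read as a direction.

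**Figure D2:**
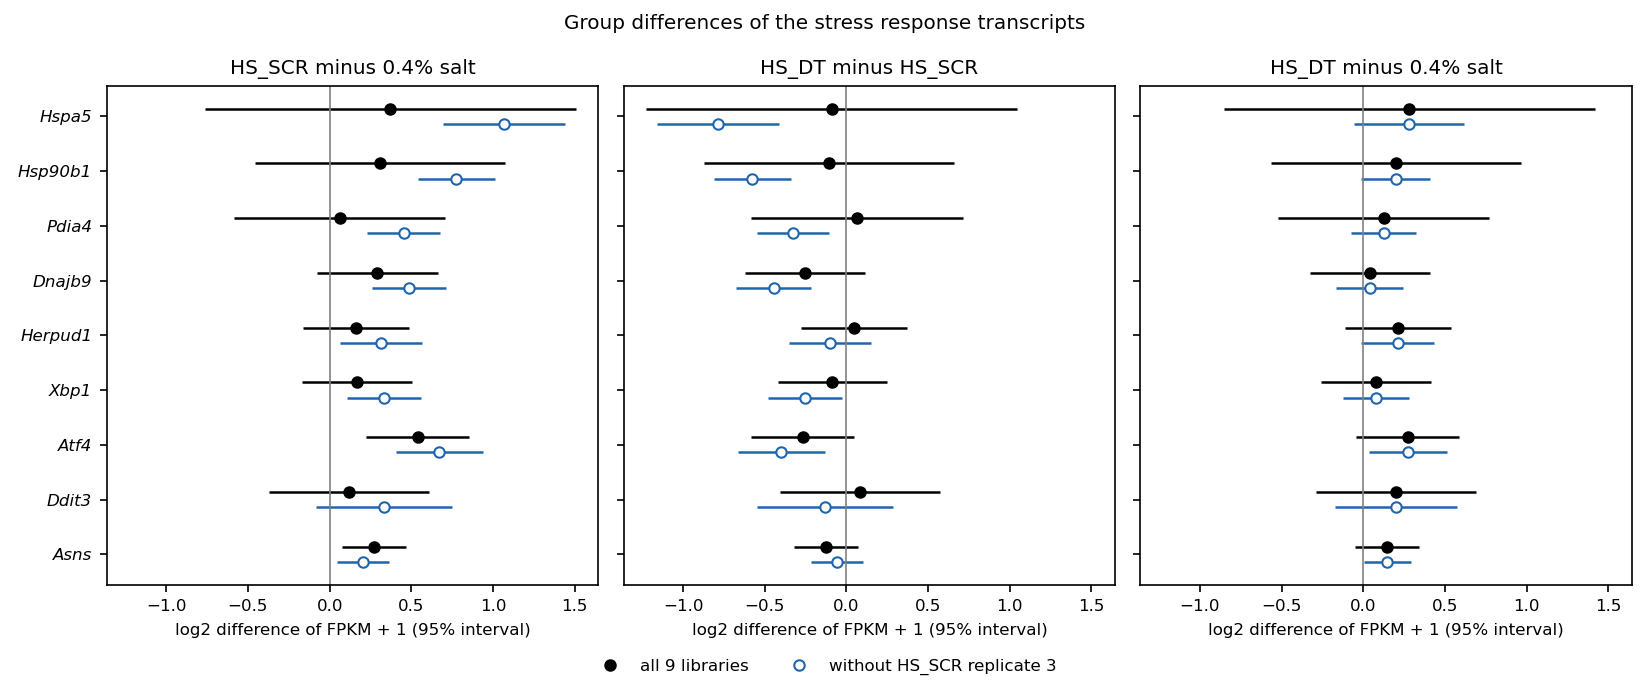
Log2 differences of FPKM + 1 with 95% intervals (limma) for the tested genes and the 2 joined loci, in the 3 comparisons, with all 9 libraries (filled) and without HS_SCR replicate 3 (open). For Hspa5 in HS_SCR minus 0.4% salt the value is 0.37 with all libraries and 1.07 without that library, while for Asns it is 0.27 and 0.20.

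HS_SCR replicate 3 was low across ER folding genes, not at these loci alone. It was the lowest of the 9 libraries at 4 of the 8 genes found by name and at both joined loci. In a list of 18 other ER folding genes (calreticulin, disulfide isomerases, glycosylation and chaperone cofactors) it was the lowest at 12, which is 66.7%, and the highest at 1. Among 11 tested cytosolic heat shock genes it was the lowest at 7. Over all tested loci it was the lowest at 24.1% and the highest at 23.1%. Among 14 other effectors of ATF4 and CHOP it was the lowest at 0 and the highest at 7. The ER-associated degradation genes were not low in this library either. Among those 16 it was the lowest at 2 and the highest at 7, which is 43.8%. Summed FPKM of the 18 ER folding genes was 1999, 2146 and 2041 in HS_DT, 2493, 2370 and 1529 in HS_SCR, and 1797, 1888 and 1934 in 0.4% salt. The same library also had the lowest share of mitochondrial transcripts and the lowest sum of thick ascending limb markers. Their part in its low ER folding values was not tested.

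**Figure D3:**
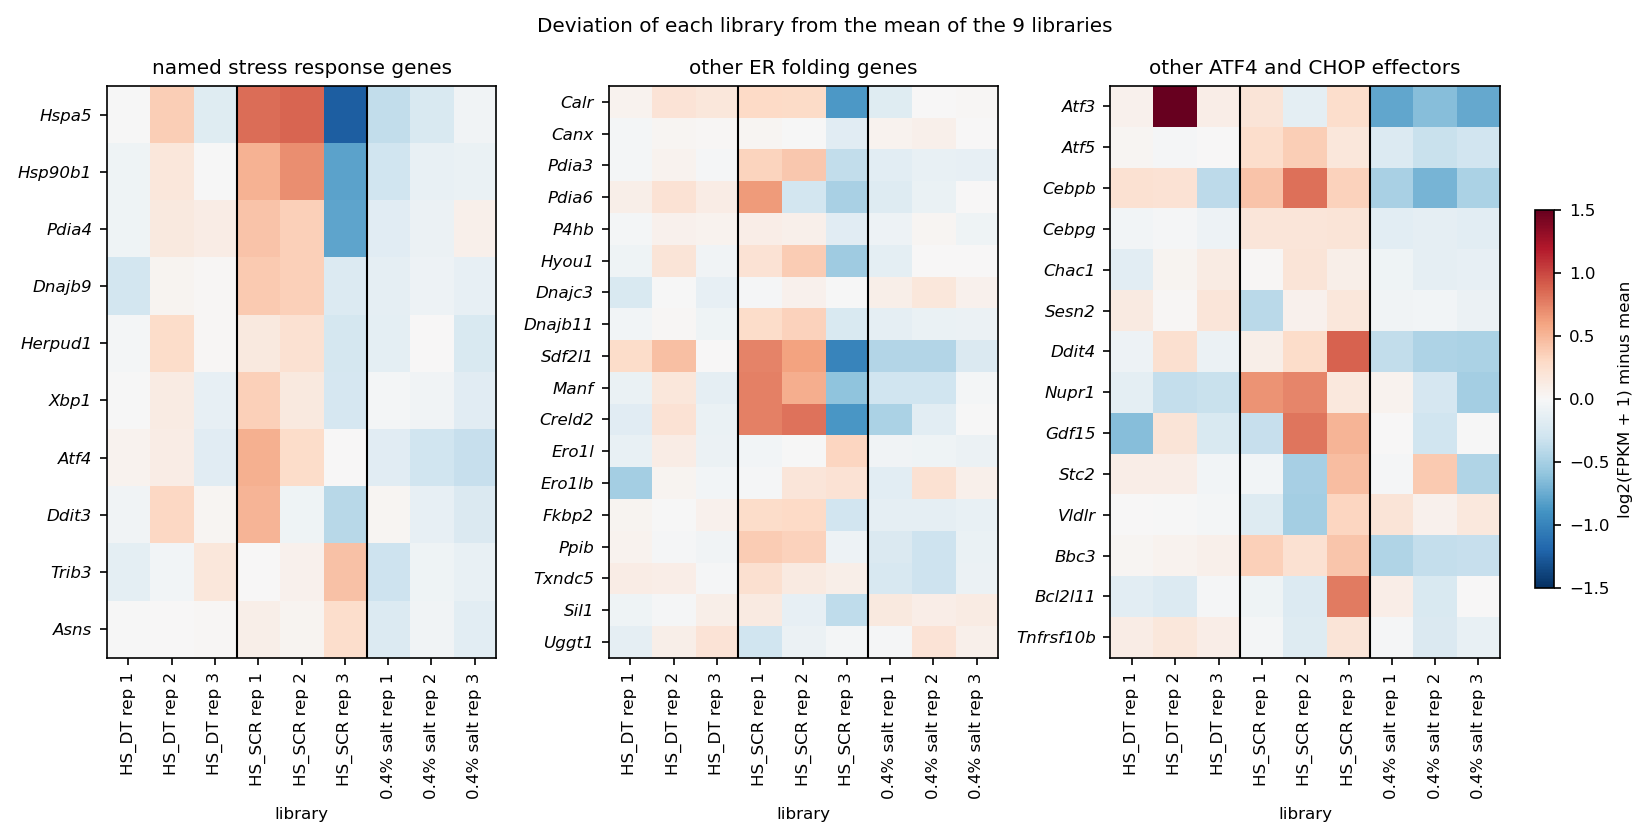
Deviation of log2(FPKM + 1) from the mean of the 9 libraries, per gene (rows) and library (columns, HS_DT, HS_SCR and 0.4% salt from left to right; colour scale limited to ±1.5), for the named genes, 18 other ER folding genes and 14 other effectors of ATF4 and CHOP. HS_SCR replicate 3 is blue at most ER folding genes and red or near white at most of the effectors.

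The wider pathway lists are read against the 8.2% of tested loci called higher and 4.88% called lower in HS_SCR against 0.4% salt. With a library left out, the share of all loci called in either direction changes too. It was 36.3% without HS_SCR replicate 3, against 13.1% with all libraries, and is not given for the others. Counts of such fits that keep a call are therefore not read as a trait of the gene. Of the 18 ER folding genes, 1 rose in HS_SCR against 0.4% salt, none fell and 17 did not pass. The median log2 difference was 0.12. The gene was Txndc5, an ER thioredoxin (57.0, 56.7 and 52.0 FPKM in HS_DT, 62.3, 57.9 and 56.3 in HS_SCR, 44.4, 42.4 and 49.8 in 0.4% salt; 0.36 ± 0.09, limma adjusted p = 0.0297), a call kept in 3 of the 9 fits that leave out a library. Without HS_SCR replicate 3, 10 of the 18 were called higher in HS_SCR than in 0.4% salt (median 0.35), where 20.5% of all loci were. In that fit 6 were called lower in HS_DT than in HS_SCR, against 9.29% of all loci. With a factor for rat number series none was called and the median of HS_SCR minus 0.4% salt was -0.07. Of 16 genes of ER-associated degradation, 3 rose in HS_SCR, none fell and 13 did not pass. The median was 0.18. They were Vimp, the selenoprotein that anchors p97 to the ER membrane (0.49 ± 0.09, limma adjusted p = 0.0150), Herpud2 (0.37 ± 0.10, 0.0394), a relative of Herpud1, and Edem2 (0.30 ± 0.08, 0.0439), which trims mannose from misfolded glycoproteins. Leaving out each library in turn kept the call of Vimp in 8 of 9 fits, of Herpud2 in 4 and of Edem2 in 1. With a factor for rat number series Herpud2 (limma adjusted p = 0.123) and Edem2 (0.0822) lost it. With the covariate for proximal tubule content described below, Vimp stood at 0.37 and was not called either (limma adjusted p = 0.333). The count of 3 was 1 with no filter on low values and with the 2 groups fitted alone.

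Of 14 tested other effectors of ATF4 and CHOP, 6 rose in HS_SCR against 0.4% salt, none fell and 8 did not pass, beside 8.2% of all loci called higher. The median log2 difference was 0.38. Leaving out each library in turn gave 2 to 6 higher calls, and the series factor gave 5, where 9.2% of all loci were called in either direction. Cebpb, a transcription factor that pairs with ATF4 and CHOP and also serves in inflammation, had 90.7, 90.2 and 58.7 FPKM in HS_DT, 104, 138 and 98.1 in HS_SCR, and 54.8, 47.2 and 55.2 in 0.4% salt. All 3 HS_SCR values exceeded those of the other groups (HS_SCR minus 0.4% salt 1.08 ± 0.19, limma adjusted p = 0.0123). Ddit4, an inhibitor of mTORC1 that also answers to hypoxia and glucocorticoids, had 33.5, 42.2 and 33.2 FPKM in HS_DT, 37.6, 43.2 and 66.3 in HS_SCR, and 27.2, 25.4 and 25.3 in 0.4% salt (0.85 ± 0.19, limma adjusted p = 0.0262). Nupr1, a chromatin protein induced by stress, had 153, 132 and 134 FPKM in HS_DT, 269.8, 281 and 189 in HS_SCR, and 175, 141 and 118 in 0.4% salt (0.76 ± 0.18, limma adjusted p = 0.0325). Leaving out each library in turn kept the call of Cebpb in 8 of 9 fits, of Ddit4 in 5 and of Nupr1 in 3, and Nupr1 lost it with the series factor (limma adjusted p = 0.119).

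The 3 further calls of that list were Bbc3 (0.73 ± 0.08, limma adjusted p = 0.00566), Atf5 (0.54 ± 0.08, 0.00723) and Cebpg (0.34 ± 0.06, 0.0150), named beyond the naming rule after their values were seen. Bbc3 encodes the pro-apoptotic protein PUMA, Atf5 a factor related to ATF4, and Cebpg a partner of ATF4. Bbc3 and Atf5 kept their call whichever of the 9 libraries was left out, and Cebpg in 7 of the 9 fits. With a covariate for proximal tubule content (mean log2 level of its markers per library), none of the 6 was called, and without the pair of libraries highest in proximal tubule markers the count was also 0. Neither fit called a gene in any of the pathway lists, so the loss of calls was not particular to the effectors. The share of all loci called in these fits is not given here. Under the covariate Bbc3 stood at 0.69 (limma adjusted p = 0.146) and Atf5 at 0.58 (0.162). Atf4 under that covariate was 0.31 (limma adjusted p = 0.582). Nupr1 in HS_DT minus HS_SCR was -0.80 ± 0.18, which did not pass (limma adjusted p = 0.0838).

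Among 15 sensors and transducers, 2 rose in HS_SCR against 0.4% salt, 1 fell and 12 did not pass. The median was 0.05. Ppp1r15a (GADD34), which directs dephosphorylation of eIF2α, had 17.4, 30.2 and 19.1 FPKM in HS_DT, 22.5, 29.3 and 26.3 in HS_SCR, and 17.1, 14.99 and 14.7 in 0.4% salt (0.70 ± 0.19, limma adjusted p = 0.0482). Creb3 rose by 0.32 ± 0.08 (limma adjusted p = 0.0357). Leaving out each library in turn kept the call of Ppp1r15a in 2 of 9 fits and of Creb3 in 1, and both lost it with the series factor (limma adjusted p = 0.146 and 0.102). Creb3l2, a membrane-bound factor of the same family, had 32.4, 34.7 and 34.1 FPKM in HS_DT, 22.8, 23.5 and 25.1 in HS_SCR, and 38.5, 41.2 and 34.4 in 0.4% salt. It was lower in every HS_SCR library than in any other and fell in HS_SCR by a log2 difference of -0.65 ± 0.09 (limma adjusted p = 0.00638), a call kept whichever library was left out. Under the covariate for proximal tubule content Creb3l2 stood at -0.58 and was not called (limma adjusted p = 0.178). Its HS_DT minus HS_SCR difference was 0.49 ± 0.09, which did not pass (limma adjusted p = 0.0644).

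Amino acid supply genes gave no common direction in HS_SCR against 0.4% salt. Of 14 tested, 1 rose, 1 fell and 12 did not pass. The median was -0.03. Slc3a2, the heavy chain of amino acid exchangers, had 62.5, 59.3 and 57.6 FPKM in HS_DT, 71.5, 68.8 and 79.8 in HS_SCR, and 56.0, 57.9 and 57.7 in 0.4% salt (0.35 ± 0.08, limma adjusted p = 0.0247; kept in 5 of 9 fits with a library left out). As with Asns, its highest value was in HS_SCR replicate 3. Cth, a transsulfuration enzyme abundant in proximal tubule, fell in HS_SCR by -1.77 ± 0.45 (limma adjusted p = 0.0383), and under the covariate for proximal tubule content it stood at -0.24 (0.817); its call was kept in 3 of 9 fits with a library left out. None of 12 tRNA synthetase genes passed, with a median of 0.16; Gars (0.24 ± 0.08, limma adjusted p = 0.0692) and Nars (0.18 ± 0.06, 0.0965) had the smallest p. Without HS_SCR replicate 3, 5 of the 12 were called higher in HS_SCR than in 0.4% salt (20.5% of all loci) and 3 lower in HS_DT than in HS_SCR (9.29%), and with library weights 3 were called higher in HS_SCR than in 0.4% salt, where 28% of all loci were called in either direction.

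Of 11 tested cytosolic heat shock genes, 2 rose in HS_SCR against 0.4% salt, none fell and 9 did not pass. The median was 0.07, which turned to -0.21 with a factor for rat number series. Hspb1, a small heat shock protein, had 83.5, 114 and 89.9 FPKM in HS_DT, 168, 172 and 130.1 in HS_SCR, and 66.5, 64.7 and 66.1 in 0.4% salt. Its group ranges did not overlap, HS_SCR minus 0.4% salt was 1.23 ± 0.14 (limma adjusted p = 0.00566), and the call was kept whichever library was left out. Bag3, a co-chaperone of HSP70, rose by 0.43 ± 0.09 (limma adjusted p = 0.0242), kept in 6 of 9 fits with a library left out. Under the covariate for proximal tubule content neither Hspb1 (1.25, limma adjusted p = 0.138) nor Bag3 (0.39, 0.342) was called. In the fit of 3 groups with no further term or weight, neither HS_DT minus HS_SCR nor HS_DT minus 0.4% salt gave a call in any of these pathway lists; among the smallest p, Hspb1 in HS_DT minus HS_SCR was -0.70 ± 0.14 (limma adjusted p = 0.0664) and Bbc3 in HS_DT minus 0.4% salt was 0.44 ± 0.08 (0.263). Other fits of all 9 libraries gave calls. With library weights, HS_DT minus 0.4% salt had 5 higher calls among the effectors of ATF4 and CHOP, 4 among cytosolic heat shock genes, and 3 each among ER folding and amino acid supply genes, with 2 or fewer in each other list, where 12.6% of all loci were called. In that fit HS_DT minus HS_SCR had 0 to 2 calls in each list (10.4% of all loci). With the series factor, HS_DT minus HS_SCR had 1 call each among sensors, degradation genes, effectors and cytosolic heat shock genes (2.94% of all loci), and with a minimum mean of 5 FPKM it had 1 among sensors.

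**Figure D4:**
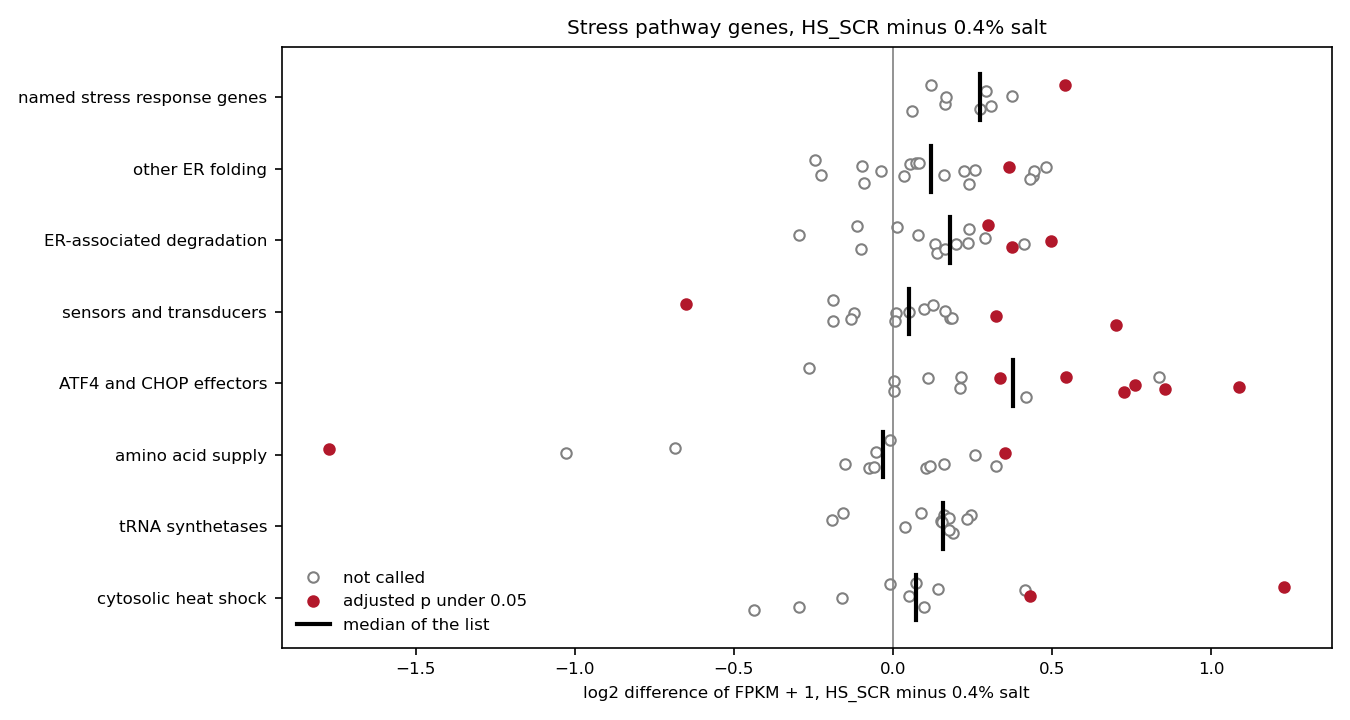
Log2 differences of FPKM + 1, HS_SCR minus 0.4% salt, for each tested gene of the pathway lists (vertical spread within a list is arbitrary), with called genes filled and the median of each list as a bar; the top list includes the 2 joined loci. The effectors of ATF4 and CHOP hold 6 filled points and the other ER folding genes 1.

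Markers of several cell types moved in HS_SCR against 0.4% salt, where 8.2% of all tested loci were called higher and 4.88% lower. Principal cell markers gave no call, with all 8 means higher in HS_SCR and a median log2 difference of 0.29. Summed FPKM of 9 macrophage markers was 2374 to 2646 in HS_DT, 2639 to 3626 in HS_SCR and 1446 to 1658 in 0.4% salt, with none at 0 in any library, and 6 of the 9 rose in HS_SCR against 0.4% salt. Summed FPKM of 5 erythroid markers was 1993, 2601 and 1900 in HS_DT, 8797, 5798 and 1410 in HS_SCR, and 853, 855 and 584 in 0.4% salt, with none at 0, and 4 of the 5 rose in HS_SCR against 0.4% salt (median log2 difference 2.41). As with Hspa5, HS_SCR replicates 1 and 2 were the highest libraries, but HS_SCR replicate 3 lay above all 0.4% salt libraries. Of 10 thick ascending limb markers, 4 fell and 1 rose in HS_SCR against 0.4% salt (median -0.71). Summed FPKM of 18 proximal tubule markers was 1581 to 4251 in HS_DT, 406 to 2099 in HS_SCR and 3025 to 6407 in 0.4% salt. Of the 16 tested, 6 fell in HS_SCR against 0.4% salt. Neutrophil markers (7) summed to 28.3 to 62.3 FPKM in HS_DT, 76.9 to 444 in HS_SCR and 6.73 to 8.80 in 0.4% salt. Of the 3 tested, 2 rose in HS_SCR against 0.4% salt. Plasma and B cell markers, of interest because secretory cells are rich in Xbp1, Hspa5 and Hsp90b1, summed to 21.4 to 25.1 FPKM in HS_DT, 23.8 to 37.8 in HS_SCR and 19.9 to 22.8 in 0.4% salt. Of the 4 plasma and B cell markers tested, 2 rose in HS_SCR against 0.4% salt. Over the marker lists, Cd79a was at 0 in all 9 libraries, Slc5a12 in 4, Mpo, Camp and Tnfrsf17 in 2 each, and Ngp and Mzb1 in 1 each. The part of these cell types in the values of the stress genes was not tested.

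The genes most like each of 4 members over the 9 libraries were searched among 9273 single-symbol genes with a mean of at least 5 FPKM. For Hspa5 they were Atp13a1, an ER membrane ATPase (Pearson r = 0.991, Spearman rho = 0.933), Cerkl (0.984, rho = 0.967) and Rexo2 (0.979, rho = 0.967). The closest to Xbp1 were Cpsf3l (r = 0.969, rho = 0.967), Moap1 (0.967, rho = 0.967) and Wtip (0.967, rho = 0.983). Atf4 was closest to Vac14 (r = 0.996, rho = 0.983), Erh (0.980, rho = 0.983) and Ldha, lactate dehydrogenase A (0.976, rho = 0.933). Asns was closest to Mgst2 (r = 0.971, rho = 0.967), Prss22 (0.952, rho = 0.917) and Tmc6 (0.949, rho = 0.967). After removal of the group means, r was 0.993 for Hspa5 with Atp13a1 and 0.888 for Asns with Mgst2. Without the 2 libraries farthest from the median of the member, r was 0.977 and 0.942 for those pairs. With 9 libraries and 9273 genes searched, high coefficients are found by selection. Between members, Trib3 and Asns correlated at r = 0.892 (rho = 0.883; 0.529 without the 2 farthest libraries, on which the relation partly rests). Hspa5 and Asns gave r = -0.18 (rho = 0.25), which turned to 0.718 without the 2 farthest libraries.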

How the data were processed

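RNA of the renal outer medulla was extracted with Trizol and libraries were made on a NeoPrep system, per the labels' protocols. The authors deposited FPKM values per locus. The genome build was rn5, and Trim Galore 0.2.5 and Cufflinks 2.2.1 were used, per the submitters' processing notes. The aligner, annotation and between-library scaling are steps not given in the sources used here. Columns were matched to rats by the number in each title. Further columns not used numbered 1, a repeat of HS_DT replicate 3 at all 30315 loci.

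log2(FPKM + 1) was tested with limma 3.58.1 in R 4.3.3 (trend moderation, two-sided, 1 fit of 3 groups, checked on simulated data), at loci averaging at least 1 FPKM, with Benjamini-Hochberg adjustment per comparison. All members are named; from each other list, up to 3 called genes with the largest difference, or the 2 with the smallest p where none was called. The members and lists were chosen with earlier results of these data known. Alternatives covered pseudocounts, filters, scalings, moderation, library weights, covariates, the replicate number as a block, rat number series and each library left out. The comparison within the lower series and the count with the joined loci were added after seeing the data. Promoter strings were searched with Python 3.11.15.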

Additional observations from a re-analysis of the deposited data

How the results depend on the processing

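In HS_SCR minus 0.4% salt, where 1 member was called, the count was 0 with no filter on low values, under quantile normalization, with the 2 groups fitted alone, with a factor for rat number series, with a covariate for proximal tubule content, and without the pair of libraries highest in proximal tubule markers. It was 3 with library weights (Hspa5, Dnajb9 and Atf4) and 0 to 4 when a library was left out. The count of 4, all higher, came without HS_SCR replicate 3, where 20.5% of all loci were called higher and 36.3% in either direction. In HS_DT minus HS_SCR, the count of 0 became 2 within the lower series (7.37% of all loci) and 0 to 2 when a library was left out. There the count of 2, both lower, came without HS_SCR replicate 3, where 9.29% of all loci were called lower and 16% in either direction. In HS_DT minus 0.4% salt it became 2 with library weights (Herpud1 and Atf4). In the F test it became 1 with library weights and 0 to 3 when a library was left out. Shares of all loci for the series factor, and for library weights in each pair of groups, are given above. For the other settings, and for the F test under these changes, they are not given here. Those counts are therefore not read as results about the members. Counting the joined loci left the counts at 1, 0, 0 and 0. With the replicate block they were also 1, 0, 0 and 0. Residual correlations exceeded 0.1 in 5 of 9 same-numbered pairs (-0.08 to 0.26), all pairs of replicate 1 among them, against 2 of 18 differently numbered pairs. Since not every same-numbered pair did, the numbers were not taken to pair libraries. In HS_SCR minus 0.4% salt the block left 1 of the 3 higher calls among degradation genes and 1 of the 2 among sensors.

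Over 24 settings, 534 log2 differences of the members and joined loci kept their direction and side of the threshold, 16 passed newly, 13 lost a call and 40 turned sign, with 0 of the last past the threshold in the changed setting. The cause was not tested.

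In HS_SCR minus 0.4% salt, the factor for rat number series turned Hspa5 (-0.45), Herpud1 (-0.022), Xbp1 (-0.063), Ddit3 (-0.13), Hsp90b1 (-0.18) and Pdia4 (-0.31). That factor takes its step from the high-salt rats alone, so these signs lean on HS_SCR replicate 3 and HS_DT replicate 3. Quantile normalization turned Pdia4 (-0.10) and the covariate for proximal tubule content Ddit3 (-0.11). With a library left out, Ddit3 ran from -0.13 to 0.33 and Pdia4 from -0.15 to 0.45.

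In HS_DT minus HS_SCR, quantile normalization turned Hspa5 (0.085), Xbp1 (0.027) and Hsp90b1 (0.063). Within the lower series the turned values were Herpud1 (-0.065), Ddit3 (-0.10) and Pdia4 (-0.35). The covariate turned Herpud1 (-0.022) and Pdia4 (-0.053), library weights Pdia4 (-0.17), and leaving out the pair of libraries above Hspa5 (0.031). With a library left out, the range was -0.79 to 0.27 for Hspa5, -0.10 to 0.14 for Herpud1, -0.25 to 0.054 for Xbp1, -0.13 to 0.33 for Ddit3, -0.58 to 0.17 for Hsp90b1 and -0.33 to 0.28 for Pdia4.

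In HS_DT minus 0.4% salt, the factor for series turned Hspa5 (-0.54), Dnajb9 (-0.11), Xbp1 (-0.15), Ddit3 (-0.048), Hsp90b1 (-0.29) and Pdia4 (-0.24). The limit given above for that factor applies here too. Dnajb9 ran from -0.017 to 0.14 with a library left out. With 3 rats a group and no read counts, small differences at low FPKM, as for Trib3, are not resolved.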
